A study of Mus musculus with 52 samples.

Results

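Retained mESC enhancers inside genes are distal enhancers of mouse embryonic stem cells (mESCs) that also overlap an enhancer of epiblast-like cells (EpiLCs) and whose centre lies within a gene. They were chosen from the deposited table of 8794 mESC enhancers by position alone. A member lay below the block of super-enhancers that opens this table and was under 5000 bp long. It shared at least 1 bp with one of 16576 EpiLC enhancers, its centre lay over 1 kb from every transcription start site (TSS) of the deposited gene table, and that centre fell in a gene interval of up to 3.2 Mb. These steps left 8563, 7879, 3062, 2933 and finally 1346 members. At the thresholds, the member centre nearest a TSS lay 1040 bp from it, and the closest centre left out by this limit 994 bp. The longest member measured 4853 bp and the shortest one left out for length 5024 bp, and the smallest overlap of a member was 24 bp. Distances to a TSS are taken from the centre throughout, so a long member can still cover a TSS.

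The study sequenced 52 chromatin libraries, 43 of mESCs and 9 of EpiLCs, of which 48 were immunoprecipitations and 4 inputs (3 of mESCs and 1 of EpiLCs), from cells of C57BL6/129Sv background. Per the labels, the genotypes were cK27R (mutant for canonical H3K27), pK27R (mutant for all H3K27), SUZ12KO, an H3.3 knockout, that knockout with wild-type or K27R add-back in 2 clones each, and the control line ABE, with 1 library labelled wild type. The antibodies recognised H3K27me2, H3K27me3, H3K27ac, H3.3, RNA polymerase II and Med1. Signal per library was not analysed here, so no genotype is compared, and sequencing depth is unknown. The results describe 3 deposited lists of regions in mm10 coordinates, which hold no replicates, so the differences below are given with exact binomial 95% intervals and were not tested.

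Embryonic stem cells represent the naive pluripotent state of the pre-implantation epiblast, and EpiLCs the formative state that follows. During this transition OCT4 stays expressed but moves to many other enhancers together with OTX2, while naive factors such as ESRRB, KLF4 and TFCP2L1 are lost and factors such as ZIC2 contribute to the formative programme. Active enhancers carry H3K27ac, written by p300 and CBP, and an enhancer within an intron can serve its host gene or another gene. The mESC list comes from earlier work in which enhancers were defined by joint binding of OCT4, SOX2 and NANOG, and the EpiLC list was defined by peaks of H3K27ac, H3K4me1 and p300.

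The sequences below show what the motif searches found in members. Motifs were sought as fixed letters on both strands in the 500 bp at each centre, for example ATGCAAAT for the octamer bound by OCT4 and other POU factors, CATTGT, any base and ATGCAAA for the OCT-SOX composite, TCAAGGTCA for ESRRB, GGGTGTGG for KLF factors, CAGCAGG for ZIC factors and GGATTA for OTX2. The composite contains all but the last base of the octamer and, where the free base is T, the SOX letters CATTGTT, so 1 site can count for all of them. Galnt17, which encodes a GalNAc-transferase-like enzyme, held the only exact composite among the 1346 members, in its intron 1. That stretch (chr5:131177351-131177520, mm10, plus strand) was chosen after its values were seen, as were those of Armc9 (chr1:86201531-86201602), Uba2 (chr7:34165218-34165425) and Tead1 (chr7:112823687-112823849), which are among the 8 members with 3 or more different pluripotency motifs. Capitals mark the matches, on either strand, to the octamer, the composite with SOX, STAT (TTCCNGGAA), TCF (CTTTGATC), TFCP2L1 (CCAG, any 6 bases, CCAG) or KLF letters.
Galnt17: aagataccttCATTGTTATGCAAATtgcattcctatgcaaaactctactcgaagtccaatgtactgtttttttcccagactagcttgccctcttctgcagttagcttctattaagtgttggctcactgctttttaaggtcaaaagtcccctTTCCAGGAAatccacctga
Armc9: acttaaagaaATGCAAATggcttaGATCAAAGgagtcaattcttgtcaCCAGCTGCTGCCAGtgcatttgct
Uba2: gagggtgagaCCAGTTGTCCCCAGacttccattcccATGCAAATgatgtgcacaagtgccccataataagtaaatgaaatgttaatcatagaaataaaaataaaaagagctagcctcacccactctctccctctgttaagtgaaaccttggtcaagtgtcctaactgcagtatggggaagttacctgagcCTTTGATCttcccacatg
Tead1: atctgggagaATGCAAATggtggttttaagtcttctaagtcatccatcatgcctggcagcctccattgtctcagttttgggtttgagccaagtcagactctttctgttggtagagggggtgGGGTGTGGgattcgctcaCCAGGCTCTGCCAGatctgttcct

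The octamer of Armc9 and the KLF match of Tead1 lie wholly in soft-masked bases, that is, in repeats or low-complexity sequence; the other matches shown in these 4 stretches do not. The composite with 1 mismatch was found in 23 members (1.71%, 1.09 to 2.55), the exact one of Galnt17 included, against 48 of 2250 mESC-only enhancers inside genes (2.13%) and 1 of 2692 flanking windows (0.0371%). Sites of 30 bases are shown for 5 of them, with the 14 composite positions in capitals and the substitution counted from 1 at the composite's 5′ end on the strand shown. Map7d1 (chr4:126248698-126248727, minus strand) carried G10T, Mpped2 (chr2:106720463-106720492, minus) T4A, Nhsl1 (chr10:18469391-18469420, minus) G5T, Sdf2 (chr11:78247915-78247944, plus) T3G and Lsamp (chr16:41634067-41634096, plus) C1G. The substitutions of Mpped2, Nhsl1, Sdf2 and Lsamp fall among the SOX letters, and that of Map7d1 among the POU letters. These sites were also chosen after their values were seen.
Map7d1: tggcatttCATTGTCATTCAAAgctctttg
Mpped2: agcagaccCATAGTCATGCAAAaatcatgt
Nhsl1: cttcgtagCATTTTTATGCAAAtgagggtg
Sdf2: tccagtttCAGTGTTATGCAAAaattgtta
Lsamp: attccaatGATTGTCATGCAAAtacagtct

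The next stretches are the central 200 bases of members in genes of pluripotency and formative lists. Of the 8 stretches taken, the 5 that held a match to the pluripotency, ZIC, OTX or SP letters are printed, and the other 3, in Tcf7l1, Grhl2 and Foxp1, held none and are not. Dnmt3a, a de novo DNA methyltransferase of the formative state, had in intron 6 an ESRRB match and a ZIC match (chr12:3890013-3890212). Tcf7l1, a repressor at Wnt target genes, had a ZIC and an OTX match in intron 3 (chr6:72677628-72677827). Grhl2, an epithelial transcription factor that opens formative enhancers, had 2 OTX matches in intron 6 (chr15:37289665-37289864). Lin28a, an inhibitor of let-7 maturation, had an SP match (GGGCGG) in intron 2 (chr4:134011743-134011942). Etv5, an ETS factor downstream of FGF signalling, had 2 OTX matches in intron 7 (chr16:22402693-22402892), both wholly soft-masked; those of Dnmt3a, Tcf7l1, Grhl2 and Lin28a hold 0 soft-masked bases. All are on the plus strand of mm10, read from the GRCm38 reference, and capitals mark the ESRRB, ZIC, OTX and SP matches.
Dnmt3a: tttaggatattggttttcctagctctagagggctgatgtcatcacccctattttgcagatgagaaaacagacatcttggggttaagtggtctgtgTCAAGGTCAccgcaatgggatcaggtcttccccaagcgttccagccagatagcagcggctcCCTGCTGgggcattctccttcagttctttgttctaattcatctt
Tcf7l1: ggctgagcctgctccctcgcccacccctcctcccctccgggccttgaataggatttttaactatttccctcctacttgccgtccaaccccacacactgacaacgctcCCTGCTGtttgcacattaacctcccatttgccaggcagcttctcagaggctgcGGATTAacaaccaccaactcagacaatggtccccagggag
Grhl2: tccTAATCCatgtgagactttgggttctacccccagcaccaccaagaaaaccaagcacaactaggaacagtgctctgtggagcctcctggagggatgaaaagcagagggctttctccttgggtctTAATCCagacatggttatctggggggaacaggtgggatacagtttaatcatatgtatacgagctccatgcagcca
Lin28a: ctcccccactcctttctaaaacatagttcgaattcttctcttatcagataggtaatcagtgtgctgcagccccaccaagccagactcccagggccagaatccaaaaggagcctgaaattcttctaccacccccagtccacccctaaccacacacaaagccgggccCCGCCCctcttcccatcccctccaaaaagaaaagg
Etv5: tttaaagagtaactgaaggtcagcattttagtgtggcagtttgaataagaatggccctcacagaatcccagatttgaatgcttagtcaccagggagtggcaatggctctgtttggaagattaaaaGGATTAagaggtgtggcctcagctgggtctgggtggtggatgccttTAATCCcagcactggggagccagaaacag

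Most members were narrower than their EpiLC partner (1197 of 1346, 88.9%), and most lay wholly inside it. Their median length was 771.5 bp (quartiles 640 and 938), against 638 bp for the 2250 mESC-only enhancers inside genes, which pass the same filters but share no base with an EpiLC enhancer, and 768 bp for the 1587 retained enhancers between genes. The EpiLC partner, the overlapping region with most shared bases, had a median width of 2300 bp (quartiles 1425 and 4094, range 175 to 33904), against 2100 bp for partners between genes and 1750 bp for all EpiLC enhancers. Wide EpiLC regions are likelier to share a base with an mESC enhancer, so the gap to 1750 bp is no result about members. The widest partner, of 33904 bp, lay within Etv5 and held the Etv5 member shown above.

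Of the 1346 members, 1099 (81.6%, 79.5 to 83.7) lay fully inside their partners, 103 (7.65%) had under 50% of their bases covered, and 117 (8.69%) had their centre outside the partner. There was 1 partner for 1308 members (97.2%), 2 for 37 and 3 for 1 member. The centres of member and partner were a median of 258.5 bp apart. Only 2 members shared a partner, a region of 22750 bp on chromosome 18 at Zfp532, a zinc finger gene. Neighbouring mESC enhancers lay at least 12516 bp apart, so few partners were wide enough to be shared. The partner reached a TSS in 83 members (6.17%), against 90 of 1587 retained enhancers between genes (5.67%), and the intervals of these shares overlap.

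Inside genes, 37.4% of distal mESC enhancers were retained (1346 of 3596, 35.8 to 39.0), against 39.2% between genes (1587 of 4053, 37.6 to 40.7). The intervals overlap, so retention inside genes and between genes could not be told apart at these counts. Within genes the share climbed with length, from the shortest quartile to the longest at 20.6%, 27.8%, 40.8% and 60.4%. When the mESC centre itself had to lie in the EpiLC enhancer, the shares were 18.6%, 25.1%, 37.8% and 55.1%. Retention also climbed with GC content of the central 500 bp, at 26.7%, 32.4%, 39.5% and 50.6% from the lowest quartile to the highest. By distance to the host TSS it was 40.7%, 39.9%, 39.4% and 29.7%, with the lowest value for enhancers over about 122 kb away. By chromosome it ran from 26.4% on chromosome 15 (34 of 129) to 47.2% on chromosome 7 (83 of 176).

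**Figure D1:**
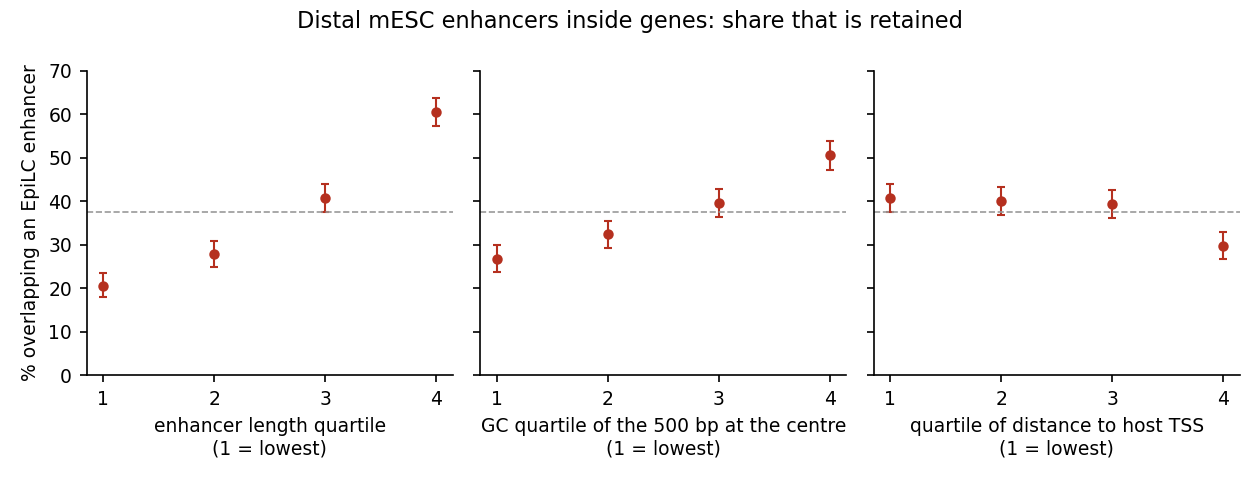
Share of distal mESC enhancers inside genes that overlap an EpiLC enhancer (y axis, percent) by quartile of enhancer length, of GC content and of distance to the host TSS; points are shares with exact binomial 95% intervals and the dashed line is the overall 37.4%. Shares climb from 20.6% to 60.4% over length quartiles and from 26.7% to 50.6% over GC quartiles, and fall only in the farthest distance quartile, at 29.7%.

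The members sat mostly in introns, and in the first intron more often than mESC-only enhancers did. The centre was intronic in 1238 members (92.0%, 90.4 to 93.4), against 2102 of 2250 mESC-only enhancers (93.4%, 92.3 to 94.4). Coding exons held 15 members (1.11%), untranslated regions 37 (2.75%), and exons of noncoding transcripts 10 (0.743%), against 3 mESC-only enhancers (0.133%) for the last class. Annotated transcripts of the host did not span the centre of 46 members. Of intronic members, 430 (34.7%, 32.1 to 37.5) were in intron 1, against 567 of 2102 mESC-only enhancers (26.97%, 25.1 to 28.9), intervals that do not overlap. With at least 50% of both regions shared, intron 1 held 30.9% of 269 intronic members, against 29.8% of 3071 enhancers below that overlap. Intron 4 or later held 39.2% of intronic members (36.4 to 42.0), against 44.8% (42.6 to 46.9).

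Members lay nearer to their host's TSS, at a median of 36.2 kb (quartiles 12.1 and 99.8), against 46.4 kb (14.9 and 140) for mESC-only enhancers. This order turned round under a reciprocal overlap of at least 50%: the median was then 50.7 kb for 287 members, against 41.0 kb for 3309 enhancers below that overlap. Hosts of members were also shorter, with a median of 106 kb against 122 kb, each host counted once per enhancer. Over all 24305 gene intervals up to 3.2 Mb, each counted once, the median was 14.6 kb. Counting per enhancer favours long genes, so the gap to 14.6 kb is no result about the hosts. In the 20% of gene length next to the TSS lay 25.1% of members (22.8 to 27.5), against 20.7% of mESC-only enhancers (19.1 to 22.4). The nearest TSS belonged to a gene other than the host for 416 members (30.9%, 28.4 to 33.5), against 762 mESC-only enhancers (33.9%, 31.9 to 35.9), so the host cannot be taken as the gene an enhancer serves. Few members lay in hosts without a coding transcript, 65 of 1319 members with an annotated host (4.93%), against 78 of 2210 mESC-only enhancers (3.53%).

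**Figure D2:**
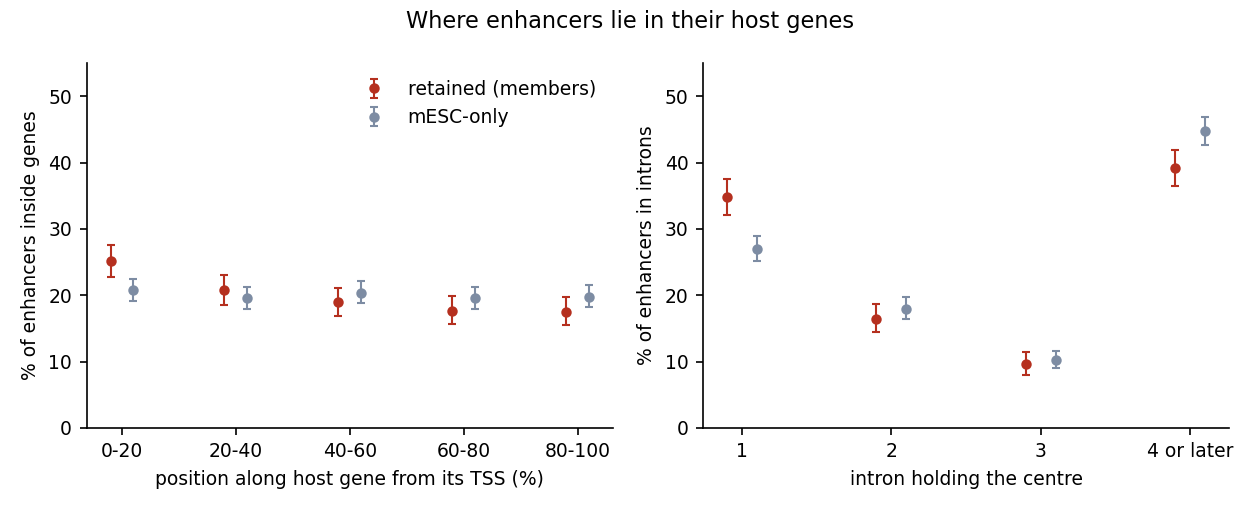
Position of members (red, left of each pair) and mESC-only enhancers inside genes (grey) along the host gene from its TSS (left panel, percent of enhancers) and by number of the intron that holds the centre (right panel, percent of intronic enhancers), with exact binomial 95% intervals. Intron 1 holds 34.7% of intronic members against 26.97% of mESC-only enhancers.

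Members held octamer, ESRRB and KLF letters in shares whose intervals overlap those of mESC-only enhancers. The octamer was present in 139 members (10.3%, 8.75 to 12.1), against 251 of 2250 mESC-only enhancers (11.2%, 9.88 to 12.5), and against 2.79% (2.20 to 3.48) of 2692 windows placed 5 kb to either side of the members. Since the mESC list was defined by OCT4, SOX2 and NANOG binding, an excess of octamer or composite letters over flanks is built into it. ESRRB letters were in 42 members (3.12%, 2.26 to 4.19), against 3.38% of mESC-only enhancers and 1.19% of flanks, and KLF letters in 100 (7.43%, 6.09 to 8.96), against 8.18% and 4.16%. The SOX letters were in 186 members (13.8%, 12.02 to 15.8), against 381 mESC-only enhancers (16.9%, 15.4 to 18.5). No pluripotency motif was found in 835 members (62.0%), 1 kind in 427, 2 kinds in 76, 3 in 7 and 4 in 1.

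Of all motifs searched, ZIC letters differed most, in percentage points, between members and mESC-only enhancers. They were in 329 members (24.4%, 22.2 to 26.8), against 356 mESC-only enhancers inside genes (15.8%, 14.3 to 17.4) and 12.6% of flanks (11.4 to 13.9). Retained enhancers between genes were at 23.9% (21.8 to 26.1) and the 4218 EpiLC-only distal enhancers inside genes at 25.1% (23.8 to 26.4), so the level is not particular to members. Conversely, 48.0% of distal enhancers inside genes with ZIC letters were retained (329 of 685, 44.2 to 51.8), against 34.9% of those without (1017 of 2911, 33.2 to 36.7). OTX letters were in 310 members (23.0%, 20.8 to 25.4), against 18.8% of mESC-only enhancers (17.2 to 20.4) and 20.4% of flanks, and SP letters in 13.0% of members (11.2 to 14.9), against 9.60% (8.41 to 10.9) and 6.28%. ETS letters (CCGGAAG) were in 40 members (2.97%, 2.13 to 4.02), against 1.82% (1.31 to 2.46) of mESC-only enhancers, 2.08% (1.58 to 2.69) of flanks and 8.25% (7.44 to 9.12) of EpiLC-only enhancers.

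**Figure D3:**
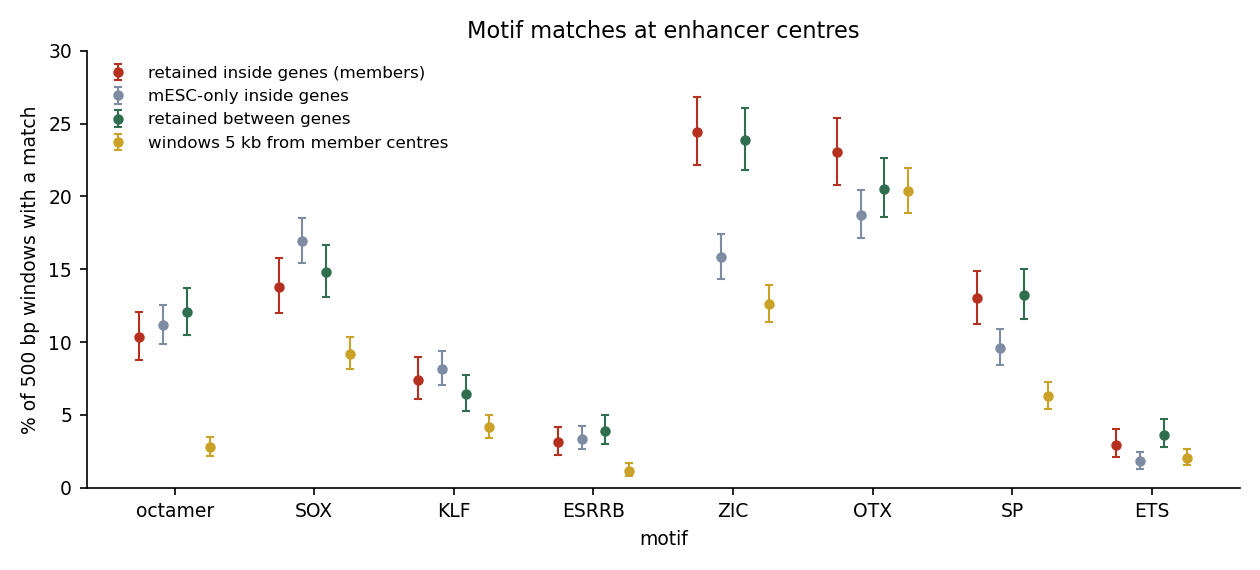
Share of 500 bp windows (y axis, percent) with at least 1 match to the letters of 8 motifs (x axis) in members, mESC-only enhancers inside genes, retained enhancers between genes and windows 5 kb from member centres, from left to right, with exact binomial 95% intervals. ZIC letters reach 24.4% of members against 15.8% of mESC-only enhancers, and octamer letters stand at 10.3% and 11.2%.

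Since members were richer in GC, with a median of 46.6% against 44.4% for mESC-only enhancers, the shares were also read within quartiles of GC content. From the lowest to the highest quartile, ZIC letters were in 11.7%, 24.1%, 24.3% and 31.2% of members, against 10.6%, 12.9%, 19.6% and 22.5% of mESC-only enhancers. The intervals overlap in the lowest quartile (7.88 to 16.6 against 8.34 to 13.3) and in the third (19.95 to 29.0 against 16.4 to 23.1), and not in the second (19.4 to 29.5 against 10.3 to 15.8) or the highest (26.98 to 35.7 against 18.7 to 26.6). Within length quartiles the share of members ran from 23.5% to 26.1%, against 14.6% to 18.3%. OTX letters were higher in members in all 4 GC quartiles, at 23.9%, 27.6%, 23.4% and 19.3% of members against 20.5%, 18.9%, 20.3% and 14.2% of mESC-only enhancers, with intervals that overlap in all but the second quartile. SP letters were in 6.52%, 5.78%, 10.6% and 22.9% of members, against 3.33%, 6.51%, 10.3% and 21.8% of mESC-only enhancers, lower in members in the second quartile and with intervals that overlap in all 4. SOX letters were lower in members in all 4, at 15.2%, 17.0%, 14.4% and 10.5% against 17.6%, 18.4%, 17.3% and 13.5%. KLF letters were lower in all but the lowest, at 3.91%, 5.44%, 7.90% and 10.1% against 3.33%, 7.17%, 10.9% and 13.0%. The SOX and KLF intervals overlap in all 4.

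**Figure D4:**
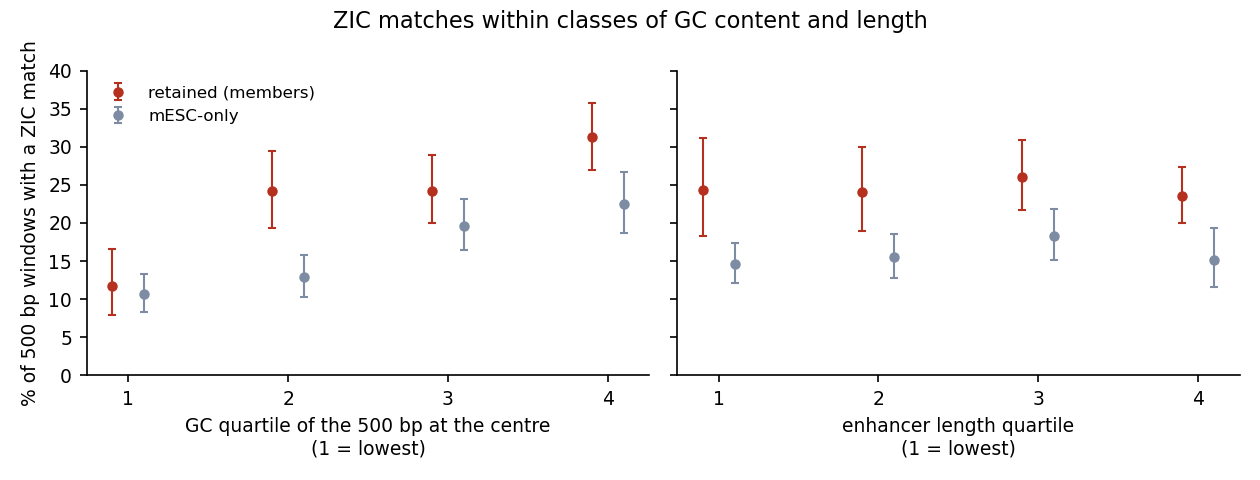
Share of 500 bp windows with ZIC letters (y axis, percent) in members (red, left of each pair) and mESC-only enhancers inside genes (grey) within quartiles of window GC content and of enhancer length, with exact binomial 95% intervals. Members are higher in all 8 classes, by least in the lowest GC quartile (11.7% against 10.6%).

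In members, octamer and ZIC matches were most frequent in the central 100 bp, while OTX and SP matches were not. In the central 100 bp an octamer began in 4.09% of members and 4.71% of mESC-only enhancers, against 0.371% and 0.444% in the bin 1000 bp to the left. ZIC letters began there in 6.91% of members and 3.69% of mESC-only enhancers, against 2.60% and 2.58% in that bin, and the highest ZIC value of mESC-only enhancers was 3.87%, in the bin 100 bp to the left. Over all bins 200 bp or more from the centre, octamer values ran from 0.223% to 0.966% in members. In mESC-only enhancers they ran from 0.222% to 0.978%. In 367 members whose partner's centre lay 500 to 5000 bp away, the mESC centre held ZIC letters in 21.3% (17.2 to 25.8), against 13.4% at the EpiLC centre (10.0 to 17.3), and the octamer in 9.26% (6.50 to 12.7), against 4.36% (2.51 to 6.98). The mESC regions were defined by binding of OCT4, SOX2 and NANOG and the EpiLC regions were not. The octamer excess at mESC centres is thus built into the lists and is no result about members. The ZIC intervals at mESC and EpiLC centres overlap. Whether the same choice of regions also raises ZIC letters at mESC centres was not tested. OTX letters stood at 23.2% and 22.3%.

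**Figure D5:**
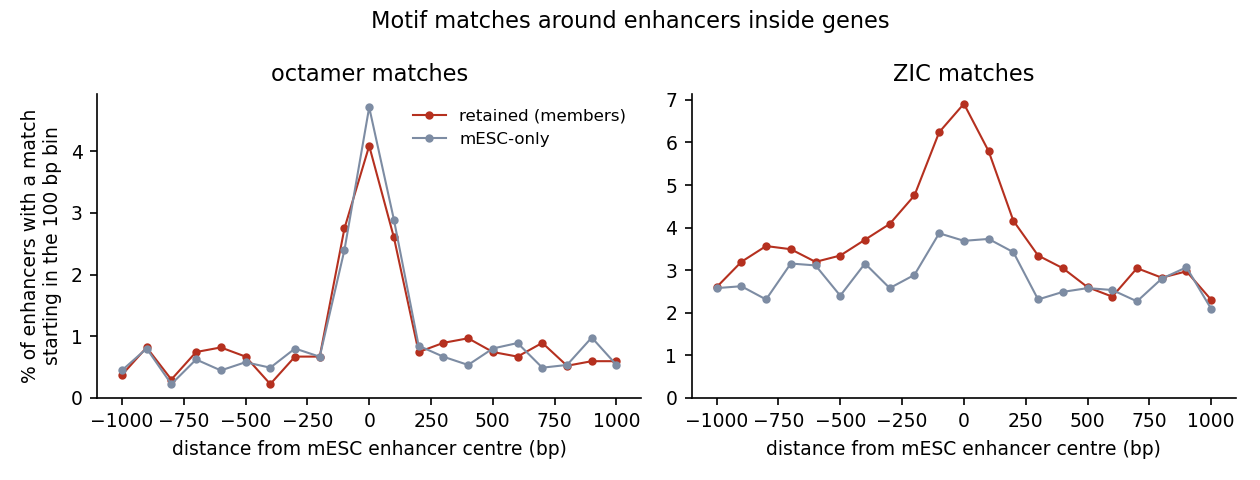
Share of members (red) and mESC-only enhancers inside genes (grey) with an octamer (left) or ZIC (right) match starting in each 100 bp bin (y axis, percent) by distance from the mESC enhancer centre (x axis, bp). The octamer peak is of like height in both sets (4.09% and 4.71%), and in the central bin ZIC matches start in 6.91% of members against 3.69% of mESC-only enhancers.

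Among members, a wider partner went with a shorter distance to the host TSS, while octamer and ZIC shares of the narrowest and the widest quartile had overlapping intervals. From the narrowest to the widest quartile of partners, with median widths of 925, 1825, 2950 and 6100 bp, the median distance to the host TSS was 51.1, 40.7, 35.9 and 23.7 kb. The octamer share was 12.2%, 12.3%, 8.48% and 8.31%. The ESRRB share climbed over the quartiles, at 1.79%, 2.41%, 3.22% and 5.04%, though the intervals of the narrowest (0.660 to 3.86) and the widest (2.97 to 7.95) overlap. ZIC letters were at 26.3%, 23.2%, 23.4% and 24.9%. Members with ZIC letters held an octamer in 10.6% (7.52 to 14.5), against 10.2% (8.43 to 12.3) of members without.

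The members were spread over 1160 named host genes, of which 1031 held 1 member, 100 held 2, 20 held 3, 7 held 4 and 2 held 5. Of these hosts, 318 (27.4%) also held an mESC-only enhancer, against 1815 of all 23745 named genes (7.64%) counted in the same way. These shares were not adjusted for gene length, so the gap is no result about the hosts. Long genes held most: the 2375 genes over 97.9 kb took 52.8% of the pairs of member and host, and 24.0% of those genes had a member, against 5.06% of all 23745 named genes. Longer intervals catch more centres, so this too is no result about the hosts. The hosts with most members were Epb41l4a, a band 4.1 family gene, and Magi2, a scaffold of cell junctions and synapses, with 5 each. Members of Magi2 lay in introns 2, 3, 10, 17 and 20, between 561 and 1451 kb from its TSS, and the nearest TSS to the last 4 was that of Phtf2. With 4 each followed Asic2 (an acid-sensing channel), Dpp6 (a subunit of potassium channels), Elmo1 (a partner of DOCK proteins in Rac activation), Mpped2 (a metallophosphoesterase), Msi2 (an RNA-binding Musashi protein), Nxn (a thioredoxin-like regulator of Wnt signalling) and Slc10a7 (a solute carrier). With 3 each, first by name, came 5730522E02Rik, Arhgef3 (a guanine nucleotide exchange factor) and Arl15 (an ARF-like GTPase).

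Relative to length, Nxn was the densest of these 12 hosts at 2.82 members per 100 kb, ahead of Epb41l4a at 2.37 and Mpped2 at 2.29, and Magi2 the sparsest at 0.338. Of the Nxn members, 3 were in intron 1 (chr11:76287133-76287895, chr11:76319538-76320445 and chr11:76350955-76352023), the first of them inside an EpiLC partner of 16600 bp. The 4 Msi2 members lay 28.1, 47.2, 135 and 339 kb from its TSS, with partners of 6289, 6426, 5950 and 2625 bp. The longest members were those of Erc2, a presynaptic scaffold (4853 bp), Dlg5, a polarity protein (4842 bp), an unnamed gene interval on chromosome 7 (4815 bp), Pdzd4 (4787 bp) and Chd2, a chromatin remodeller (4745 bp). Those of Pdzd4 and Chd2 lay wholly inside partners of 11400 and 10475 bp, while those of Erc2, Dlg5 and the unnamed interval were covered to 28.7%, 13.7% and 15.8%.

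Gene lists were read against all 23745 named gene intervals, of which 5.06% held at least 1 member and 7.76% at least 1 mESC-only enhancer. No list was matched to these intervals for gene length. The naive pluripotency list had a member in 0 of 25 genes, Nanog, Klf2, Klf4 and Klf5 among them, and an mESC-only enhancer in 1. These genes are short, with a median of 10.6 kb. The general pluripotency list had 2 of 15, Tcf7l1 with 2 members and Lin28a with 1, against an mESC-only enhancer in 2, and no member in Pou5f1, Sox2, Sall4 or Utf1. The formative list had 4 of 21 (19.0%), with 3 members in Foxp1, a forkhead factor, 2 in Grhl2 and 1 each in Dnmt3a and Etv5, against an mESC-only enhancer in 2, and no member in Fgf5, Otx2, Pou3f1 or Dnmt3b. Foxp1, Grhl2, Dnmt3a and Etv5 are 596, 131, 107 and 58.3 kb long. Of all named genes over 97.9 kb, 24.0% held a member. The 11 of 20 neural regulators that held members (55%) had 17 between them, among them 3 in Meis2, a homeodomain factor, and 2 each in Auts2 and Pax6. That list's genes have a median length of 134 kb, and 10 of them also held mESC-only enhancers.

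Among signalling genes, the LIF list had a member in 3 of 12 genes, the kinases Jak2 and Pim1 and the feedback inhibitor Socs2, and an mESC-only enhancer in 0. The members of Pim1 and Socs2 lay 3.38 and 1.37 kb from the TSS, in genes of only 4.42 and 5.37 kb. FGF and ERK signalling had 3 of 23, Spred2 (an ERK inhibitor) with 2, and Dusp6 (an ERK phosphatase) and Fgfr1 (an FGF receptor) with 1 each, against an mESC-only enhancer in 5. Wnt signalling had 2 of 20, Tcf7l1 and the receptor gene Fzd5, and BMP signalling 1 of 16, the receptor gene Bmpr1a, while the Nodal list had 0 of 16, against mESC-only enhancers in 2, 1 and 1 genes of the Wnt, BMP and Nodal lists.

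Of chromatin genes, the Polycomb list had a member in 1 of 29, Rybp, a subunit of a PRC1 variant, and an mESC-only enhancer in 6, and Ezh1, Ezh2, Suz12 and Eed held no member. The H3K27 acetylation and Mediator list had 1 of 22, Med14, a Mediator scaffold subunit, against an mESC-only enhancer in 4, and no member in Ep300, Crebbp or Brd2. The H3K4 and enhancer chromatin list had 4 of 17, Zmynd8 (a chromatin reader) with 2, and Kdm5b (an H3K4 demethylase), Ncoa1 and Ncoa3 (nuclear receptor coactivators) with 1 each, against an mESC-only enhancer in 5. The DNA methylation list had 1 of 12, Dnmt3a, against an mESC-only enhancer in 1. Of lists for other lineages, homeodomain regulators had 2 of 30 (Pax6 and Pax7), trophoblast 1 of 12 (Tead4), muscle and liver 2 of 20 (Dmd and Ttn, both very long genes), and mesoderm and endoderm 0 of 16. mESC-only enhancers lay in 4, 2, 1 and 0 genes of these lists. Ribosomal proteins had 0 of 20, and feeder and fibroblast markers 0 of 14, with mESC-only enhancers in 0 genes of either list. The counts are small and were not tested.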

How the data were processed

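Coordinates in the 3 deposited tables are regions (chromosome, start, end and strand, mm10) with 0 value columns per library. Per the series' design text, the authors took mESC and EpiLC enhancers from earlier publications and lifted them over to mm10; the gene table is a non-redundant UCSC gene set. Trimmomatic 0.38, bedtools 2.29.2 and Bowtie2 2.3.4.1, and the builds dm6 and mm10, are listed in the submitters' processing notes, which as used here give neither role nor settings. That the mESC set rests on OCT4, SOX2 and NANOG binding is background knowledge.

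Starts were taken as 0-based and are printed 1-based. Of 24402 gene rows, 23811 were named: 12038 by exact match to RefSeq, 1406 to GENCODE M21 genes, 1215 to GENCODE M21 transcripts, and 9152 by the best overlap, with a Jaccard index of 0.8 or more. Introns come from GENCODE M21 and sequence from RefSeq GRCm38. Python 3.11.15, numpy 2.4.6 and scipy 1.17.1 were used; bedtools 2.31.1 recounted 1346 members. Functions were tested on simulated regions and planted motifs. Members, motifs and gene lists were chosen with earlier results of these data known. Named were the 12 hosts with most members, the 5 longest members, the 4 genes of each list with most members and up to 4 without; some genes that this rule names are not reported here. Intervals cover counting error only, and region lists have no replicates, so no test was run.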

Additional observations from a re-analysis of the deposited data

How the results depend on the processing

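Of 135 values recomputed under an alternative, 93 stayed within the 95% interval of the value reported (counts: within 1.5 times), 40 moved beyond it and 2 reversed. No paired analysis was possible because the tables hold no values per library and no result comes from a test. The number of members was 1200 to 1371 under every alternative except reciprocal 50% overlap, where it was 287. The share retained inside genes was then 7.98%, and 34.0% with at least 50% of the mESC enhancer covered and 34.2% with its centre inside the EpiLC enhancer. The octamer share of members was 6.54% in 200 bp, 13.5% in 1000 bp, 14.4% in the whole enhancer and 59.96% with 1 mismatch. The ZIC difference, members minus mESC-only enhancers, was 8.62 percentage points as reported, and, under alternatives chosen after seeing the data, 5.12 in 200 bp, 14.9 in the whole enhancer, 5.43 with reciprocal overlap, and 1.10 and 4.64 in GC quartiles 1 and 3. The SP difference of 3.401 points reversed to -0.46 with reciprocal overlap and to -0.73 in GC quartile 2. The order of the median distances to the host TSS also turned round with reciprocal overlap, at 50.7 kb for members against 41.0 kb for the rest. The median partner width then fell from 2300 to 1250 bp, below the 1750 bp of all EpiLC enhancers. Since the member must then cover at least 50% of its partner, wide partners are left out, and this fall is built into the rule. Under reciprocal overlap, enhancers with a smaller overlap count as mESC-only. The cause of the other shifts was not tested. Exact letters miss degenerate sites, so each motif share depends on the letters and window chosen.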

Other observations

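Of the 1346 members, 5 had a central window with GC over 50% and a ratio of observed to expected CpG over 0.6, against 6 of 2250 mESC-only enhancers inside genes. They lay in Bcl11a (0.788), Urgcp (0.697), Nr6a1 (0.665), Igsf21 (0.615) and Dusp6 (0.602), named after their values were seen, and 4 of them were in intron 1. In Nr6a1 and Dusp6 the host's TSS was 1178 and 1155 bp from the member's centre. The Dusp6 member (chr10:99262836-99265936, 3101 bp) covers the Dusp6 TSS at 99263231.

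The mESC table had no neighbouring regions closer than 12516 bp, while the EpiLC table had gaps down to 100 bp. AP-1 letters (TGANTCA) were in 16.3% of members (14.3 to 18.4), against 16.8% of mESC-only enhancers (15.2 to 18.4). GATA letters (AGATAA) were in 23.8% (21.5 to 26.1), against 27.2% (25.4 to 29.1), and 23.6% of flanks. TEAD letters (GGAATG) were in 30.0% (27.6 to 32.5), against 28.1% (26.2 to 30.0). HNF1 letters were in 0 of 1346 members, which allows a share of up to 0.274%.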
